A study of Mus musculus with 32 samples.

Results

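Basal keratinocytes are held to the basement membrane by hemidesmosomes and by beta1 integrins, and the 9 genes described here encode the core of both. They were taken as a list of gene names: Itgb4 and Itga6 (the integrin alpha6 beta4 receptor of the hemidesmosome), Col17a1 (the transmembrane collagen XVII), Dst (dystonin, whose epithelial form BPAG1e links hemidesmosomes to keratins), Lama3 and Lamb3 (laminin-332 chains), and Itga3, Itgb1 and Itga2 (the alpha3 beta1 laminin receptor and the alpha2 beta1 collagen receptor). These are 9 of the 19970 gene names in the count files, and each file listed all 9. In skin, laminin-332 is the ligand of both alpha6 beta4 and alpha3 beta1. The alpha6 beta4 receptor and collagen XVII hold keratin filaments to that ligand through dystonin and plectin, whereas the beta1 integrins connect to actin through focal adhesions. Keratinocytes that leave the basal layer lose hemidesmosomes, and inherited defects of several of these genes cause blistering of the skin.

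RNA was counted by CEL-seq2, which counts 3′ ends of polyadenylated transcripts, in 32 libraries from mouse skin of strain Bl/6. Organoids, clusters of keratinocytes grown in culture, were collected unpassaged after 7 days (5 libraries), at passages 7 to 12 within 3 months (early, 12 libraries) or at passages 23 to 30 within 6 months (late, 6 libraries). Unpassaged organoids had 1 library in each of 5 media: forskolin (which raises cyclic AMP), forskolin with Fgf10, forskolin with Fgf1, forskolin with an inhibitor of TGF-beta signalling, and the inhibitor alone. Among early libraries, forskolin was combined with Fgf10 in 4, with Fgf1 in 2 and with the inhibitor in 4, and the other 2 had the inhibitor without forskolin. The medium of every late library was forskolin with Fgf1. Interfollicular epidermis, sorted for Itga6 and Sca1 (the protein of Ly6a), gave 3 libraries. Anagen hair follicles (the growth phase) gave 3 libraries, and a mixture of anagen and telogen (resting) follicles gave 3. The labels give no ages, do not name the inhibitor, and do not tell separate animals or cultures among replicates. P-values therefore measure only how far these libraries spread, which may be technical.

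Levels are CPM, a gene's count as a share of the library's total without spike-ins on the usual CPM scale. Totals were 412582 to 3351435 counts, and the 3 epidermal libraries were shallow at 469839 to 739531. The 4 basal keratinocyte markers summed to 14771 to 44260 CPM in organoids and to 26445 to 29940 CPM in epidermis. In anagen follicles they summed to 336 to 2248 CPM and in mixed follicles to 7276 to 13640 CPM, and 7 hair matrix and inner root sheath genes summed to 31938 to 51532 CPM in anagen and 8159 to 17153 CPM in mixed follicles, against at most 48.1 CPM in any other library. Anagen replicate 3 was lowest in its group for the basal markers and for all 9 members. The late libraries held 97.1 to 21879 CPM of 7 markers of differentiated keratinocytes. In bulk RNA, fewer cells of a type and less RNA per cell cannot be told apart.

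The summed level of the 9 genes was 1312 to 3611 CPM in unpassaged, 779 to 2407 CPM in early and 1274 to 7075 CPM in late organoids. It was 5139 to 6349 CPM in epidermis, 61.1 to 428 CPM in anagen follicles and 224 to 385 CPM in mixed follicles. The genes did not share one order across groups. Col17a1 and Dst were highest in epidermis, with no overlap with any other group. Itga3 and Itgb1 had their highest means in late organoids, at 1363 ± 1542 and 430 ± 313 CPM (SD, n = 6), with ranges that overlapped those of the next group.

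**Figure D1:**
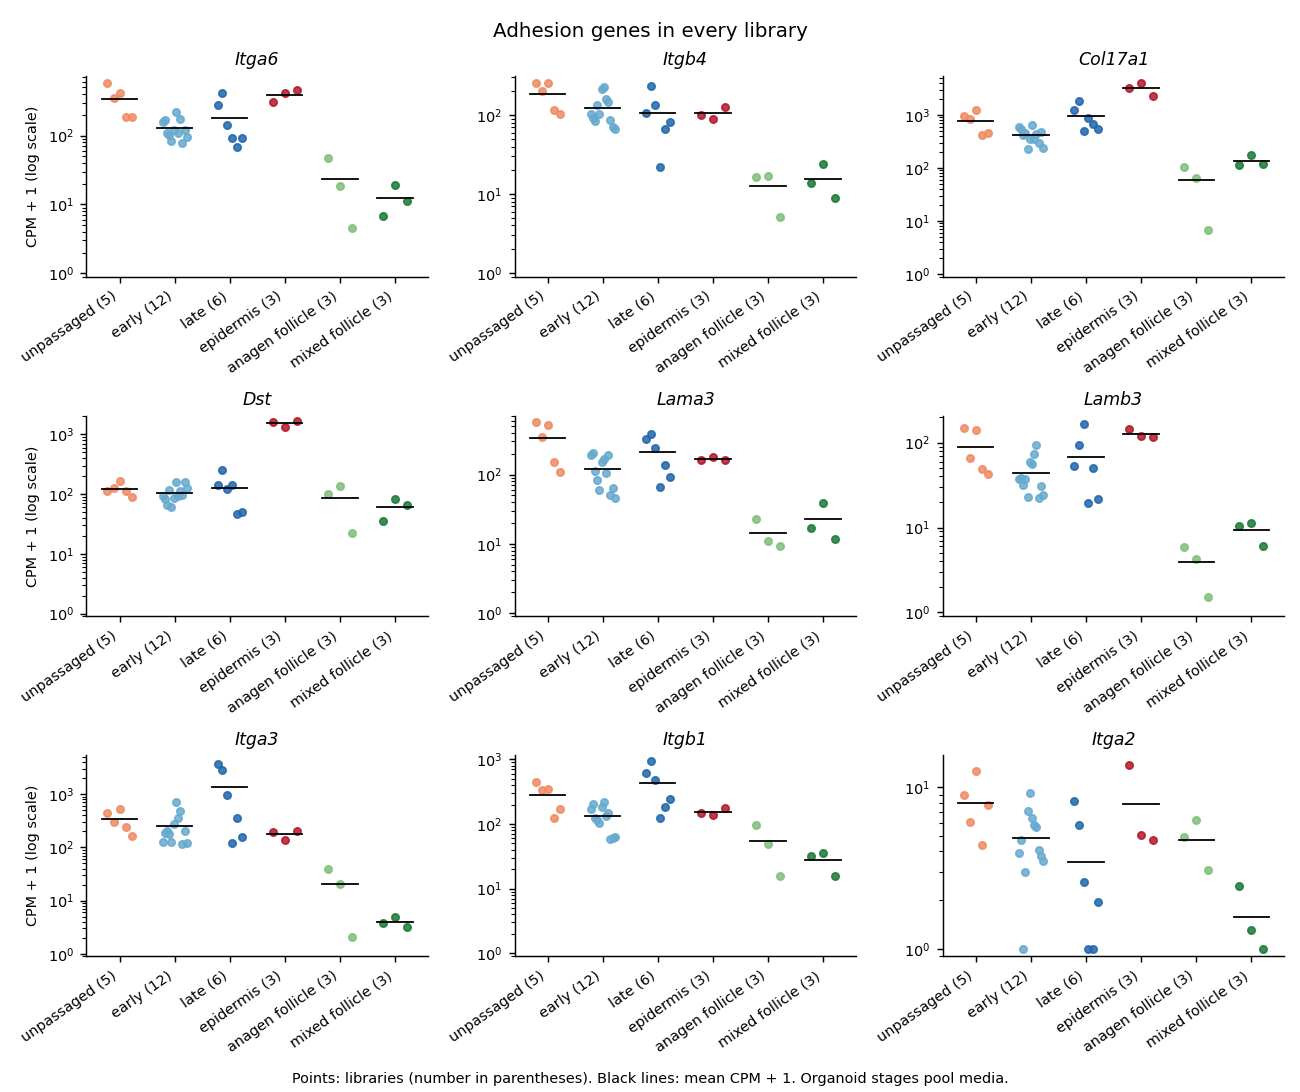
Level of each of the 9 genes in every library, as CPM + 1 on a log axis, by organoid stage, epidermis and follicle group; each point is 1 library and each line a mean. Col17a1 and Dst are highest in the 3 epidermal libraries, Itga3 and Itgb1 reach their highest values in late organoids, and follicle libraries are low for most genes.

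Sorted epidermis held more RNA of most of these genes than hair follicles did. Itga6 was a marker of the sort, so its level in epidermis (309, 408 and 455 CPM) is given without a test. The sort also selected which epidermal cells were counted, whereas the labels name no sort for follicles or organoids. Its part in the levels of the other genes was not tested and cannot be told apart from the tissue. Of the 8 other genes, 6 were higher in epidermis than in anagen follicles and the same 6 were higher than in mixed follicles: Itgb4, Col17a1, Dst, Lama3, Lamb3 and Itga3. Over all 10843 genes tested, 34.2% differed between epidermis and anagen follicles and 14.8% were higher in epidermis, and against mixed follicles the shares were 30.3% and 11.9%. The median log2 fold change of the 8 genes was 3.05 against anagen and 2.72 against mixed follicles, and the medians of all genes were −0.15 and −0.08. Both comparisons share the epidermal libraries.

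Among the hemidesmosome genes, Col17a1 had 3267, 3957 and 2242 CPM in the epidermal libraries. It had 102, 64.4 and 5.64 CPM in anagen follicles and 111, 173 and 118 CPM in mixed follicles. The epidermal values lay above every follicle value, with a log2 fold change of 5.54 ± 0.709 (SE) against anagen follicles (adjusted p = 2.35e-05) and 3.44 ± 0.642 against mixed follicles (adjusted p = 0.000714). Dst had 1594, 1322 and 1663 CPM in epidermis, against 100.1, 137 and 21.0 CPM in anagen and 34.4, 82.7 and 65.7 CPM in mixed follicles. Its groups did not overlap either, and its log2 fold changes were 3.82 ± 0.597 and 3.48 ± 0.590 (adjusted p = 0.000133 and 0.000335). Itgb4, the chain that carries the long cytoplasmic tail of the hemidesmosome integrin, had 100.03, 89.2 and 125.8 CPM in epidermis, against 15.6, 15.8 and 4.11 CPM in anagen and 12.9, 23.3 and 7.94 CPM in mixed follicles. Its log2 fold change was 2.76 against anagen (adjusted p = 0.00181) and 1.79 against mixed follicles (adjusted p = 0.0257), and the second did not pass without mixed replicate 1, mixed replicate 3 or epidermis replicate 3.

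The laminin-332 chains followed the same direction. Lama3 averaged 165 ± 10.3 CPM in epidermis, against 13.3 ± 7.46 CPM in anagen and 21.5 ± 14.4 CPM in mixed follicles (SD, n = 3 each), with log2 fold changes of 3.17 and 1.93 (adjusted p = 0.000312 and 0.00933). Lamb3 averaged 125.6 ± 14.7 CPM in epidermis, against 2.89 ± 2.20 CPM in anagen and 8.27 ± 2.84 CPM in mixed follicles, with log2 fold changes of 5.01 and 2.86 (adjusted p = 5.46e-05 and 0.00234). Neither chain overlapped between epidermis and either follicle group.

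Of the beta1 partners, Itga3 had 196, 134 and 200 CPM in epidermis. Anagen follicles had 38.4, 19.1 and 1.03 CPM and mixed follicles 2.87, 3.88 and 2.17 CPM. No follicle library reached the lowest epidermal value, and the log2 fold changes were 2.92 ± 1.04 against anagen (adjusted p = 0.0370) and 4.79 ± 1.20 against mixed follicles (adjusted p = 0.00592). The test against anagen did not pass without anagen replicate 2 or 3 or without any 1 of the epidermal libraries (adjusted p = 0.0567 to 0.105). Itgb1, the shared beta chain, averaged 153 ± 18.2 CPM in epidermis, against 52.9 ± 40.7 CPM in anagen and 26.7 ± 10.8 CPM in mixed follicles, and did not pass (log2 fold changes 1.21 and 1.49, adjusted p = 0.0994 and 0.0540). It passed against anagen follicles without anagen replicate 1 (adjusted p = 0.0467). Against mixed follicles it passed with upper quartile scaling (adjusted p = 0.0296), without the filter on low counts (adjusted p = 0.0284), in DESeq2 (adjusted p = 0.0375) and with the 2 groups fitted alone. Itga2 was scarce everywhere, at 0 to 21 counts a library, and did not pass in either comparison (adjusted p = 0.782 and 0.0836). It had no count in mixed replicate 3, in 1 early library or in late replicates 4 and 5, where a count of 0 allows up to 2.01 to 4.64 CPM.

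The balance of calls in these follicle comparisons depended on the scaling. Of the genes called against anagen follicles, 43.4% were higher in epidermis as fitted, 54.1% with upper quartile scaling and 61.9% with library totals alone. Against mixed follicles the shares were 39.1%, 52.6% and 77.7%. Library totals alone moved the median of all genes to 0.28 against anagen and 0.92 against mixed follicles, and the 6 genes kept their calls and direction under both. With library totals alone both Itgb1 and Itga2 passed against mixed follicles (adjusted p = 0.00869 and 0.0218).

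Genes that work beside these 9 were counted from lists. Over all genes tested, 34.2% differed between epidermis and anagen follicles and 30.3% between epidermis and mixed follicles. Of 4 hemidesmosome partners, 3 were higher in epidermis than in anagen follicles: the basal keratins Krt14 and Krt5 and the tetraspanin Cd151, which binds laminin-receptor integrins. Krt14 and Krt5 also belong to the basal keratinocyte markers summed above, so their calls are not separate from those markers. Cd151 averaged 388 CPM in epidermis, against 35.9 CPM in anagen and 48.2 CPM in mixed follicles, and was the 1 partner that passed against mixed follicles (log2 fold change 1.95). Of 16 tested genes among 21 further laminin and basement membrane genes, 6 were higher and 3 lower than in anagen follicles, and 6 were higher and 1 lower than in mixed follicles. Lama1, the alpha1 laminin chain, averaged 57.4 CPM in epidermis, against 0.171 CPM in anagen and 0.338 CPM in mixed follicles. Nid1, which bridges laminin and collagen IV, had no count in epidermis, against means of 7.86 CPM in anagen and 5.30 CPM in mixed follicles. Against a floor of 3 counts over the shallow epidermal group, that makes it at least 4.585-fold and 3.089-fold lower. Fibroblast markers summed to 70.2 to 131 CPM in epidermis, 34.9 to 511 CPM in anagen and 890 to 1922 CPM in mixed follicles, and immune markers to 159 to 315 CPM in epidermis and at most 83.5 CPM in follicles. Their part in these results was not tested.

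**Figure D2:**
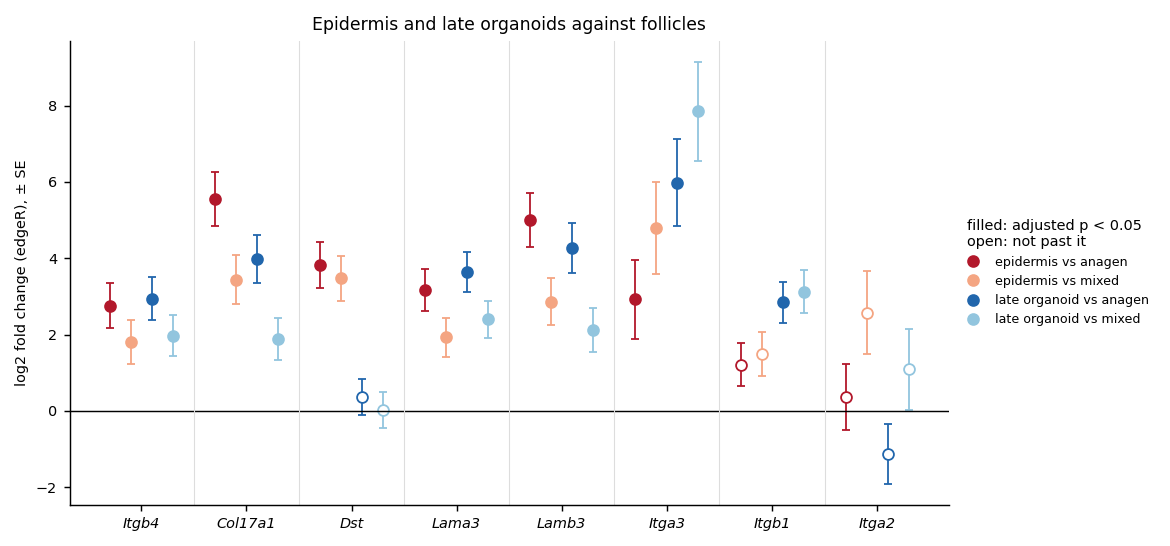
Log2 fold change with its standard error for each gene in sorted epidermis and in late organoids, each against anagen and against mixed follicles, from the edgeR fit; the sort marker Itga6 is not drawn. Most points lie above 0, and Dst lies well above 0 for epidermis and near 0 for late organoids.

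Late organoids also held more RNA of most of these genes than follicles did. Against anagen follicles 7 of the 9 genes were higher in late organoids, where 45.8% of genes differed and 21.2% were higher, and against mixed follicles the same 7 were higher, where 39.7% differed and 17.2% were higher. The exceptions were Dst and Itga2. Medians over the 9 genes were 2.94 and 2.12, against −0.05 and −0.0045 over all genes. Of all calls, 46.3% against anagen and 43.4% against mixed follicles were higher in late organoids, and with library totals alone 56.6% and 74.5% were. The labels of late organoids give no selection on Itga6, so it was tested here, and it ranged over 66.5 to 419 CPM in late organoids, against 3.59 to 46.2 CPM in anagen and 5.73 to 18.2 CPM in mixed follicles. It was higher by 2.85 ± 0.611 and 3.01 ± 0.631 on the log2 scale (adjusted p = 0.00112 and 0.00107), and no late library fell into a follicle range. Itga3 had the largest fold changes of the 9, at 5.98 ± 1.15 and 7.85 ± 1.30 (adjusted p = 0.000442 and 0.000136). Dst averaged 125 ± 76.9 CPM in late organoids (SD, n = 6), against 86.0 ± 59.1 CPM in anagen and 60.9 ± 24.5 CPM in mixed follicles (SD, n = 3 each), and the ranges overlapped (log2 fold changes 0.36 and 0.01, adjusted p = 0.563 and 0.984). Its 95% intervals ran from −0.57 to 1.29 and from −0.91 to 0.94. Col17a1 against mixed follicles (log2 fold change 1.88, adjusted p = 0.0122) did not pass without mixed replicate 1 or without mixed replicate 2.

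Between the follicle groups, 1 of the 9 genes passed and 6.63% of all genes did, 5.42% as lower in anagen. Col17a1 was lower in anagen follicles (102, 64.4 and 5.64 CPM) than in mixed follicles (111, 173 and 118 CPM), with a log2 fold change of −2.11 ± 0.612 (adjusted p = 0.0462). The call depended on the settings: it was lost without anagen replicate 2 or 3, without any 1 mixed library, with upper quartile or library-total scaling (adjusted p = 0.0665 and 0.238), and with the 2 groups fitted alone (adjusted p = 0.0574). Lamb3 also had groups that did not overlap, at 0.513 to 4.86 CPM in anagen and 5.05 to 10.4 CPM in mixed follicles, and did not pass (log2 fold change −2.14, adjusted p = 0.0855), though it did in DESeq2 (adjusted p = 0.0384) and without the filter on low counts (adjusted p = 0.0193). Krt14 and Krt5 were lower in anagen follicles by 4.18 and 3.65 on the log2 scale, and the other 2 of 4 basal markers did not pass. Of the tested markers, 4 of 5 fibroblast, 2 of 4 immune and 1 of 6 differentiated keratinocyte genes were also lower. No gene of these lists was higher. Their part in the level of Col17a1 was not tested. The share of calls that were higher in anagen was 18.2% as fitted and 42.7% with library totals alone.

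In culture, Col17a1 and Dst were lower than in epidermis at each organoid stage, Itgb4 passed as lower at none, and Itga3 and Itgb1 were higher in late organoids. Unpassaged and early organoids were pooled over media here, and late organoids had forskolin with Fgf1. The promoter windows of the 2 genes that were lower throughout are shown here. Dst has several starts and ends, and its locus (chr1:33908225-34308661, plus strand, GRCm38) holds 7 clusters of annotated 3′ ends of coding transcripts spread over 171526 bases, so a 3′ count by gene name cannot tell its epithelial form from the others. Windows are RefSeq promoters on GRCm38.p6, 250 bases before and 50 after a start. Capitals mark matches on either strand to TGANTCA (a loose form of the AP-1 site), GCCNNNGGC (an AP-2 site) or GGGCGG (a GC box). N is any base, whereas the AP-1 site has C or G in the middle of TGANTCA.
Col17a1, chr19:47691993-47692292, minus strand: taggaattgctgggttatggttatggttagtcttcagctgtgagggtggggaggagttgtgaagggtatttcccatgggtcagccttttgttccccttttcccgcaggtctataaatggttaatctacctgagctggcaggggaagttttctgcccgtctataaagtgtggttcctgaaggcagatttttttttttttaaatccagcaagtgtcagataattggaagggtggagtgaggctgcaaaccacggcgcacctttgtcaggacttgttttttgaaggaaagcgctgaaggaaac
Dst start 1, chr1:34011345-34011644, plus strand: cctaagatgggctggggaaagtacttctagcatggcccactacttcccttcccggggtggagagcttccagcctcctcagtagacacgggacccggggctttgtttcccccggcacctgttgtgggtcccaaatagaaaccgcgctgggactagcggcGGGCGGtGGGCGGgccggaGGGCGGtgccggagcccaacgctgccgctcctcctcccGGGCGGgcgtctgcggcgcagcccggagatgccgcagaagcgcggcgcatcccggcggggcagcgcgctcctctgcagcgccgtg
Dst start 2, chr1:34160010-34160309, plus strand: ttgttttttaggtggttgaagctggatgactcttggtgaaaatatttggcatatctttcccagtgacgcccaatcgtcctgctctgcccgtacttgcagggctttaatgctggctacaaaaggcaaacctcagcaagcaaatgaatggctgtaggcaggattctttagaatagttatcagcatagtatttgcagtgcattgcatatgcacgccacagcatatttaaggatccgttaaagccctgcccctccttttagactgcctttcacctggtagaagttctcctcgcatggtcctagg
The first Dst window held 4 matches to GGGCGG and was 70.3% G or C, and neither the other Dst window nor that of Col17a1 held any of the 3 motifs. Over all 32841 promoter windows, TGANTCA occurred in 7.81%, GCCNNNGGC in 16.6% and GGGCGG in 35.7%. Matches to GCCNNNGGC and GGGCGG could overlap and were counted separately.

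Dst had 111, 124, 164, 111 and 88.0 CPM in the 5 unpassaged libraries. Early libraries ran from 59.6 to 159 CPM with a median of 94.7, and late libraries had 142, 254, 122, 141, 44.9 and 48.6 CPM, against 1594, 1322 and 1663 CPM in epidermis. Every organoid library lay below every epidermal library. The log2 fold changes against epidermis were −3.49 ± 0.261 for unpassaged, −3.61 ± 0.197 for early and −3.46 ± 0.454 for late organoids (adjusted p = 1.87e-09, 7.02e-12 and 4.65e-05). Col17a1 had 935, 822, 1213, 419 and 449 CPM in unpassaged organoids. Early libraries ran from 225 to 635 CPM (median 426), and late libraries had 1260, 1859, 507, 886, 668 and 548 CPM, against 3267, 3957 and 2242 CPM in epidermis. Again no organoid library reached an epidermal value, with log2 fold changes of −1.85 ± 0.348, −2.64 ± 0.275 and −1.56 ± 0.486 (adjusted p = 0.000205, 9.1e-08 and 0.0289). The late call for Col17a1 did not pass without epidermis replicate 1 or 2 or without late replicate 3 or 6 (adjusted p = 0.0521 to 0.128). These 3 comparisons share the epidermal libraries, so they are not independent of each other.

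Itgb4 had 252, 203, 258, 114 and 103 CPM in unpassaged organoids, 66.3 to 223 CPM (median 102) in early organoids and 20.8 to 235 CPM in late organoids, against 100.03, 89.2 and 125.8 CPM in epidermis. Its unpassaged range reached above the epidermal one at every medium without the inhibitor and into it with the inhibitor. The unpassaged value was higher than in epidermis by 1.02 ± 0.407 on the log2 scale (adjusted p = 0.0450), a call that was lost without any 1 epidermal library, without any 1 of the 3 media that lacked the inhibitor, and with upper quartile or library-total scaling. Its late fold change was 0.18 with a 95% interval of −0.76 to 1.12. Itga6, the sort marker, had 185 to 576 CPM in unpassaged, 76.4 to 221 CPM in early and 66.5 to 419 CPM in late organoids and 309 to 455 CPM in epidermis, and is described without a test.

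Among the laminin chains, Lamb3 was lower in early organoids than in epidermis. The 12 early libraries had 21.6 to 92.8 CPM with a median of 36.5, against 143, 118 and 117 CPM in epidermis. These ranges did not overlap, and the log2 fold change was −1.25 ± 0.397 (adjusted p = 0.0122), which did not pass without epidermis replicate 1 (adjusted p = 0.0510). In late organoids it had 52.1, 92.1, 164, 18.2, 49.5 and 20.9 CPM and did not pass (log2 fold change −0.75, adjusted p = 0.287), but it passed as lower without late replicate 3 (log2 fold change −1.27, adjusted p = 0.0350). Lama3 had 573, 342, 523, 151 and 107 CPM in unpassaged organoids, 45.6 to 207 CPM in early and 65.1 to 383 CPM in late organoids, against 160, 177 and 159 CPM in epidermis. It passed at no stage (log2 fold changes 1.24, −0.21 and 0.47), and its unpassaged value passed without either library with the inhibitor (adjusted p = 0.0371 and 0.0268) and in DESeq2 (adjusted p = 0.0474).

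The alpha3 beta1 laminin receptor differed from epidermis in late organoids, with more RNA of both Itga3 and Itgb1. The promoter windows of Itga3 are shown because its fold changes in late organoids against follicles were the largest of the 9.
Itga3 start 1, chr11:95069149-95069448, minus strand: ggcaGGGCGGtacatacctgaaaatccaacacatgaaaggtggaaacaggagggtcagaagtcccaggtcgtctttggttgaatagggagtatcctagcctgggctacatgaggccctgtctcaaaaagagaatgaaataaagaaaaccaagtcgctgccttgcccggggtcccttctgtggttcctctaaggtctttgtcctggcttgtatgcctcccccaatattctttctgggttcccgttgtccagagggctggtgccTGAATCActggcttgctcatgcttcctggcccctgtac
Itga3 start 2, chr11:95076665-95076964, minus strand: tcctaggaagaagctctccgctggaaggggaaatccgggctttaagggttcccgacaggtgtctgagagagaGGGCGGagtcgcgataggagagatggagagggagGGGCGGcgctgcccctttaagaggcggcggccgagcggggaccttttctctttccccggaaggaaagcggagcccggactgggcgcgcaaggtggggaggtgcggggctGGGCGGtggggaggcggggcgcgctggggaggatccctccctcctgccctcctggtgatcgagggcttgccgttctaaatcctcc
The first window held 1 match to TGANTCA at position +13 from the start and 1 to GGGCGG, and the second held 3 to GGGCGG. The TGANTCA match had A in the middle, so it is not the AP-1 site itself. Of the other windows looked at, Itgb1 held 1 GGGCGG, Itga2 held 1 GGGCGG and 1 GCCNNNGGC, and the 2 of Lamb3 held no match. Itga3 had 450, 296, 536, 238 and 164 CPM in unpassaged organoids and 113 to 722 CPM with a median of 190 in early organoids. Late replicates 1 to 6 had 3684, 2889, 976, 120, 356 and 153 CPM, against 196, 134 and 200 CPM in epidermis. Late replicates 1, 2 and 3 lay far above epidermis and replicates 4 and 6 within or below its range. The late log2 fold change was 3.06 ± 0.968 (adjusted p = 0.0307) and did not pass without any 1 epidermal library (adjusted p = 0.0912 to 0.121) or with the 2 groups fitted alone (adjusted p = 0.0709). Itgb1 had 622, 938, 479, 122, 180 and 239 CPM in late organoids and 147, 139 and 174 CPM in epidermis. Late replicate 4 lay below the epidermal libraries and the other 5 above them, and the log2 fold change was 1.63 ± 0.508 (adjusted p = 0.0286), which likewise did not pass without any 1 epidermal library (adjusted p = 0.0752 to 0.107), with the 2 groups fitted alone (adjusted p = 0.0766) or with library totals alone (adjusted p = 0.0985).

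Counted together, 3 of 8 genes passed in unpassaged organoids against epidermis (1 higher, 2 lower), 3 in early organoids (all lower) and 4 in late organoids (2 higher, 2 lower). The shares over all genes were 45.1%, 49.6% and 21.8%, so the counts lie near or below the background in the unpassaged and early comparisons. By direction, 23.4% of all genes were higher and 21.6% lower in unpassaged organoids, 23.9% were lower in early organoids, and 12.2% were higher and 9.53% lower in late organoids. The late count was 1 without epidermis replicate 1 or without replicate 2 and 2 without replicate 3, and the unpassaged count was 5 without either library that had the inhibitor and 5 in DESeq2. Medians over the 8 genes were 0.63, −0.32 and −0.28, against 0.04, 0.06 and 0.04 over all genes. The share of calls that were higher in early organoids was 51.8% as fitted and 36.6% with library totals alone, which put the median of all genes at −0.23. Itgb1 in early organoids, near 0 as fitted (log2 fold change 0.05, adjusted p = 0.927), changed sign under that scaling and under upper quartile scaling.

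**Figure D3:**
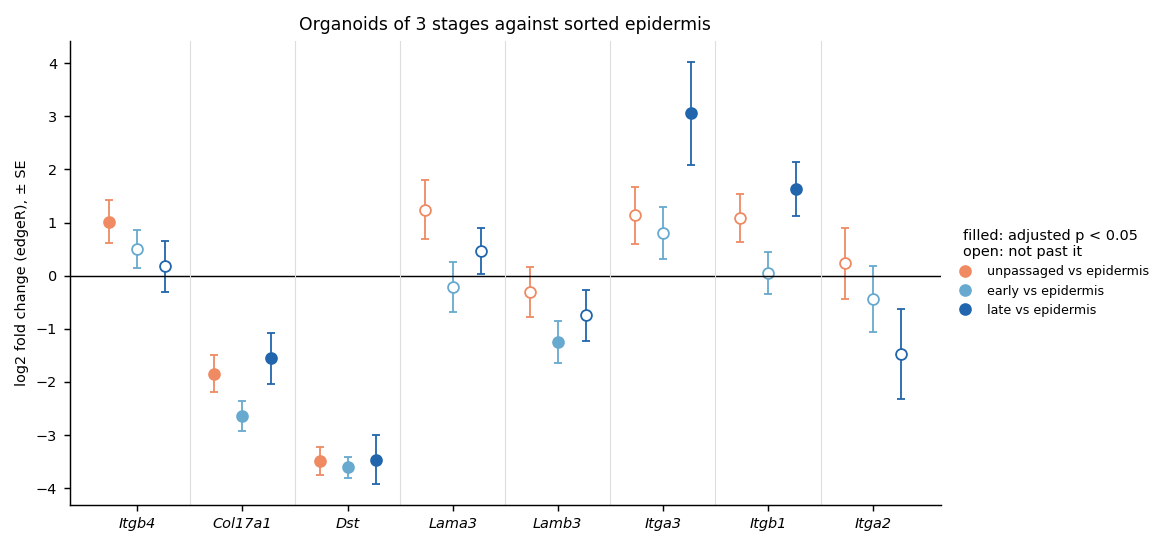
Log2 fold change against sorted epidermis, with its standard error, for unpassaged, early and late organoids and for the 8 genes other than the sort marker Itga6. Dst stays near −3.5 at each stage, Col17a1 is negative at each, and Itga3 and Itgb1 are highest in late organoids.

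The late libraries were uneven. The 6 late files fell into 4 sets by the genes they list: replicates 1 and 2, replicate 3, replicates 4 and 5, and replicate 6. What sets them apart is not stated, and no set holds epidermis or early organoids as well, so no comparison could be made within a set. Markers of differentiated keratinocytes summed to 97.1, 158 and 864 CPM in replicates 1, 2 and 3 and to 21879, 3955 and 13500 CPM in replicates 4, 5 and 6, and the basal markers to 18024, 25069 and 30767 CPM in the first 3 and to 14771, 20442 and 22974 CPM in the others. Their part in the members' levels was not tested. Leaving out the scarce Itga2, 6 members were higher in each of replicates 1, 2 and 3 than in each of replicates 4, 5 and 6. These were Itga6, Itgb4, Lama3, Lamb3, Itga3 and Itgb1, whereas Col17a1 and Dst overlapped. Dst was below epidermis in all 6 late libraries.

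**Figure D4:**
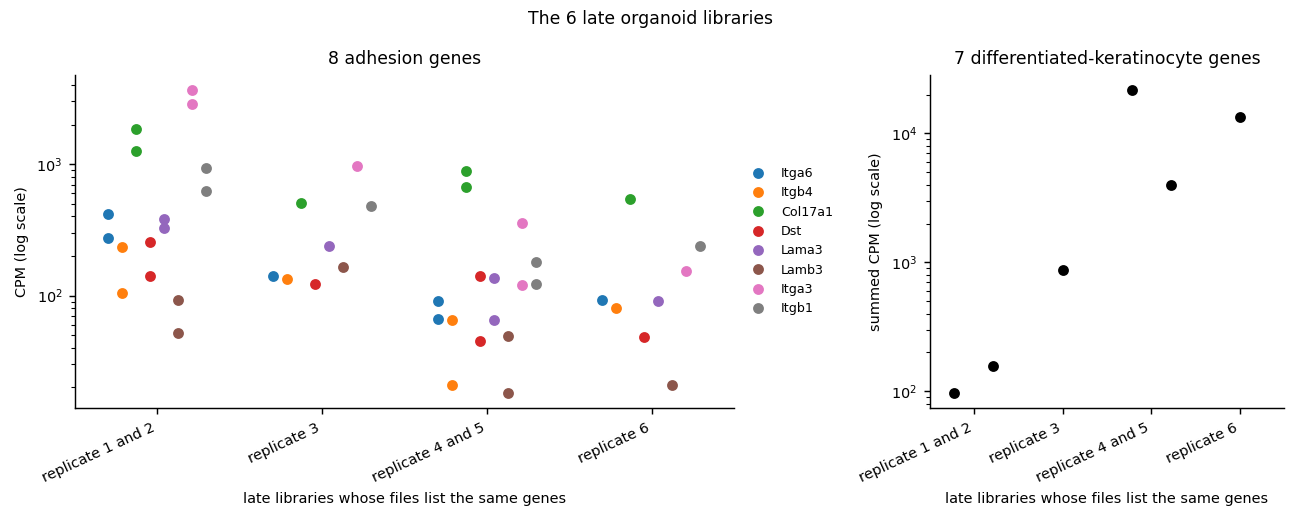
CPM of 8 genes (without the scarce Itga2) and summed CPM of 7 markers of differentiated keratinocytes in the 6 late organoid libraries, placed by the sets of libraries whose files list the same genes. Itga6, Itgb4, Lama3, Lamb3, Itga3 and Itgb1 are higher and the differentiation markers lower in replicates 1, 2 and 3, and Col17a1 and Dst overlap.

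Other adhesion genes in culture were counted from lists. Over all genes tested, 45.1% differed from epidermis in unpassaged, 49.6% in early and 21.8% in late organoids. Of 4 hemidesmosome partners, 1 was higher and 2 lower in unpassaged organoids than in epidermis, and in early organoids 2 were higher and 2 lower. Plec, whose product plectin joins integrin beta4 to keratins, averaged 47.6 CPM in unpassaged and 45.6 CPM in early organoids, against 132 CPM in epidermis (log2 fold changes −1.30 and −1.26, adjusted p = 0.00164 and 0.000414). Cd151 was lower by 1.00 and 0.72 on the log2 scale, and Krt14 was higher, at 16993 CPM in unpassaged organoids, against 7424 CPM in epidermis. None of the 4 passed in late organoids. Of the 21 laminin and basement membrane genes, 15 were tested in unpassaged and early organoids, with 2 higher and 6 lower in the first and 1 higher and 8 lower in the second. In late organoids 16 of them were tested, with 2 higher and 4 lower.

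Single basement membrane genes showed large changes. Lama1 averaged 0.407 CPM in unpassaged and 0.679 CPM in early organoids, against 57.4 CPM in epidermis (log2 fold changes −6.84 and −5.76). Col4a6, a collagen IV chain, had no count in late organoids, against 33.5 CPM in epidermis, which makes it at least 73.3-fold lower against a floor of 3 counts over the late group. Frem2, a basement membrane protein of the Fraser complex, was likewise at least 46.4-fold lower (0 against 21.2 CPM). Lamb1, the laminin beta1 chain, was higher in late organoids at 85.7 ± 48.9 CPM, against 4.34 ± 3.02 CPM in epidermis (log2 fold change 4.50, adjusted p = 0.00118).

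Focal adhesion genes, the partners of beta1 integrins, were counted in the same way. The shares over all genes were again 45.1% in unpassaged, 49.6% in early and 21.8% in late organoids. Of 18 such genes, 14 were tested in unpassaged and early organoids against epidermis, with 4 higher and 3 lower in the first and 5 higher and 4 lower in the second. In late organoids 16 were tested, with 5 higher and 2 lower. Actn1, the actin cross-linker alpha-actinin 1, averaged 488, 337 and 432 CPM in unpassaged, early and late organoids, against 74.9 CPM in epidermis (log2 fold changes 2.87, 2.43 and 2.69). Fermt1, kindlin-1, which activates integrins, was lower at each stage, with means of 42.2, 32.2 and 46.5 CPM in unpassaged, early and late organoids, against 118 CPM in epidermis. Among other integrin chains, Itgb5 averaged 112 CPM in late organoids and 35.2 CPM in epidermis (log2 fold change 1.87), and Itga4 averaged 3.87 CPM in late organoids and 45.9 CPM in epidermis (log2 fold change −3.79). Itga4 is also a chain of immune cells, whose 6 markers summed to at most 5.76 CPM in organoids and to 159 to 315 CPM in epidermis, and their part was not tested.

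Against unpassaged organoids in the same 4 media, 3 of 9 genes were lower in early organoids, namely Itga6, Lama3 and Itgb1, where 11.8% of genes differed and 6.13% were lower. Itga6 had 76.4 to 221 CPM (median 113) in the 12 early libraries, against 347, 419, 185 and 185 CPM in the 4 unpassaged libraries. A single early library lay within the unpassaged range, and the log2 fold change was −1.02 ± 0.237 (adjusted p = 0.0122). Lama3 changed by −1.02 ± 0.301 (adjusted p = 0.0372) and Itgb1 by −0.82 ± 0.254 (adjusted p = 0.0450). The median over the 9 genes was −0.58, against 0.01 over all genes. The share of calls that were higher was 48.1% as fitted and 26.5% with library totals alone.

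All unpassaged files list the same genes as 2 of the early files, and the other 10 early files list another set, so passage and file set are partly mixed. With the set as a term no gene of the 9 passed (Itga6 −0.82, Lama3 −0.63, Itgb1 −0.64 on the log2 scale) and 7 genes passed in all. Within the first set, the fit held only the media with Fgf10 or Fgf1, with 1 library of each medium at each stage. So few libraries give a poor estimate of the spread. In that fit 5 of the 9 passed, all lower, namely Itga6, Lama3, Lamb3, Itgb4 and Itga3, where 433 genes (5.2%) differed and 2.64% were lower. Itgb1 did not pass there (adjusted p = 0.0672). All 3 calls were lost without the unpassaged library with Fgf10 or without that with Fgf1, and those of Lama3 and Itgb1 also without that with the inhibitor alone and without some single early libraries.

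Late and early organoids in the same medium, forskolin with Fgf1, were compared with 6 and 2 libraries. None of the 9 genes passed in edgeR, where 666 genes (6.71%) did, 1 of the 9 had an unadjusted p under 0.05, and DESeq2 called 1. That gene was Itga3, with 120 to 3684 CPM in late libraries and 182 and 278 CPM in early libraries (log2 fold change 2.38 ± 1.04, adjusted p = 0.166). Late replicates 1, 2, 3 and 5 were above both early libraries and late replicates 4 and 6 below them. The median over the 9 genes was 0.35, against 0.08 over all genes.

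Among early media, none of the 9 genes passed in any of the 3 comparisons by edgeR as fitted or by DESeq2, and none had an unadjusted p under 0.05. For forskolin with the inhibitor against forskolin with Fgf10 (4 libraries each), 57 genes (0.575%) passed. These included Col7a1, the collagen of anchoring fibrils, with means of 0.843 CPM with the inhibitor and 23.8 CPM with Fgf10, and Itgb5, with 4.33 CPM and 49.6 CPM in the same order (log2 fold changes −4.91 and −3.54). For forskolin with the inhibitor against the inhibitor alone (4 and 2 libraries), edgeR called 0 genes, 623 had an unadjusted p under 0.05, and DESeq2 called 24. For Fgf1 against Fgf10 with forskolin (2 and 4 libraries) the counts were 0, 328 and 12. The intervals were wide: for Itga3 the 95% interval was −0.31 to 2.78 for inhibitor against Fgf10 and −1.38 to 2.29 for Fgf1 against Fgf10. An increase of Itga3 by several fold was therefore not excluded in either comparison. Itgb1 against Fgf10 changed by −0.03 with the inhibitor (−0.94 to 0.87) and by 0.51 with Fgf1 (−0.58 to 1.59).

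The unpassaged libraries showed the clearest pattern by medium, and a comparison of media with the TGF-beta inhibitor against those without it was added after the values were seen. TGF-beta is known to induce laminin, integrin and matrix genes in keratinocytes. In unpassaged organoids the 2 libraries with the inhibitor were below the 3 without it for 8 of the 9 genes, with no overlap in CPM, where 14.3% of 9477 genes were lower without overlap. The media compared also differed in growth factor and forskolin, as set out below. Lama3 had 151 and 107 CPM with the inhibitor and 573, 342 and 523 CPM without it. Itga6 had 185 and 185 CPM with the inhibitor and 576, 347 and 419 CPM without it. Col17a1 had 419 and 449 CPM with the inhibitor and 935, 822 and 1213 CPM without it. In each of these 3 genes the lowest library without the inhibitor was well above the higher library with it. Dst was barely separated, with 110.8 and 88.0 CPM with the inhibitor and a lowest value of 111.4 CPM without it.

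No gene of the 9 passed in this comparison (Itga6 −1.44 ± 0.357, adjusted p = 0.0508; Lama3 −2.06 ± 0.567, adjusted p = 0.0769; Col17a1 −1.35 ± 0.366, adjusted p = 0.0710), while 135 genes (1.42%) did. Of the 9, 8 had an unadjusted p under 0.05, as had 1516 genes, and DESeq2 called 4 of the 9 and 311 genes. Itga6 passed with relative log expression scaling (adjusted p = 0.0484), without the filter on low counts (0.0386) and in DESeq2 (0.00502). The median over the 9 genes was −1.35, against 0.01 over all genes. An exact permutation test of 2 against 3 libraries cannot give a two-sided p under 0.2. The 2 libraries with the inhibitor also had the most differentiation markers (7099 and 14066 CPM, against 4738, 3960 and 3112 CPM without it), and of 7 fibroblast markers Lum was at 0 in all 5, and the sum was 16.9 and 29.6 CPM with the inhibitor and 234, 353 and 425 CPM without it. Nearly all of that sum was Sparc, a matrix protein also made by other cells, with means of 21.2 CPM with the inhibitor and 331 CPM without it. The part of these markers in the result was not tested. The share of calls that were higher with the inhibitor was 28.9% as fitted and 46.7% with library totals alone.

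In early organoids the corresponding comparison (6 libraries with the inhibitor and 6 without) differed in its media: every library without the inhibitor had Fgf10 or Fgf1 and none with it did, so inhibitor and growth factor cannot be told apart there. In unpassaged organoids 1 of the 3 libraries without the inhibitor had forskolin alone. The others without it had Fgf10 or Fgf1, which neither library with the inhibitor had. The library with the inhibitor alone also lacked the forskolin that all other unpassaged libraries had. Only forskolin alone and forskolin with the inhibitor, 1 library of each, differed in nothing but the inhibitor. The pooled unpassaged comparison therefore cannot tell inhibitor, growth factor and forskolin apart either. The early comparison gave no call among the 9 genes, where 294 genes (3.1%) passed, 1 of the 9 had an unadjusted p under 0.05 and DESeq2 called none of the 9. Dst had 91.8 to 159 CPM with the inhibitor and 59.6 to 115 CPM without it, with overlapping ranges (log2 fold change 0.50 ± 0.170, adjusted p = 0.134). Lama3 changed by −0.48 with a 95% interval of −1.14 to 0.19 and Itga6 by 0.01 with an interval of −0.42 to 0.44. The difference between the unpassaged and the early effect did not pass for any of the 9 genes (7 genes or 0.0739% passed in all, 4 with library totals alone, and 7 of the 9 had an unadjusted p under 0.05; DESeq2 called none of the 9). For Itga6 that difference was −1.45 ± 0.415 (adjusted p = 0.347).

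**Figure D5:**
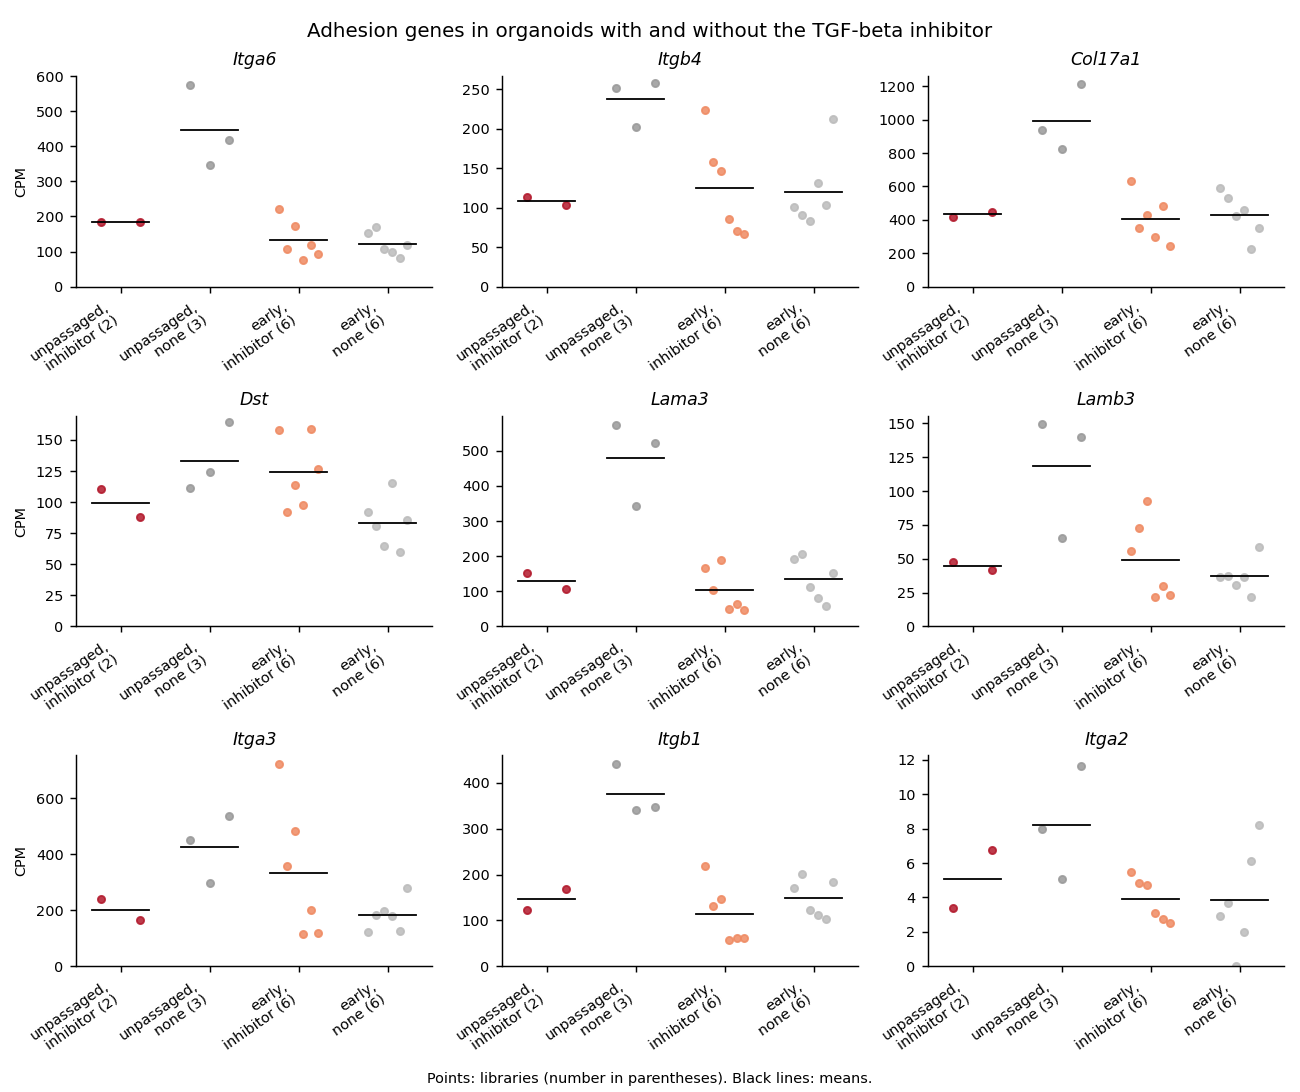
CPM of each gene in unpassaged and early organoids with and without the TGF-beta inhibitor; each point is 1 library (2 and 3 unpassaged, 6 and 6 early). Unpassaged points with the inhibitor lie below those without it for every gene except Itga2, though barely for Dst, and early points overlap.

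Some basement membrane and integrin genes outside the 9 passed in both stages, each with the media named above. Col7a1, whose anchoring fibrils fix the basement membrane to the dermis, averaged 2.47 CPM with the inhibitor and 17.6 CPM without it in unpassaged organoids, and 1.29 and 27.3 CPM in early organoids (log2 fold changes −2.91 and −4.55). Itgb5, an integrin chain that pairs with alphaV, averaged 9.63 and 41.2 CPM in unpassaged and 5.09 and 49.3 CPM in early organoids in the same order of media (log2 fold changes −2.24 and −3.31). Of 11 tested laminin and basement membrane genes, 2 were lower in unpassaged organoids, and 4 were lower and 1 higher in early organoids with the inhibitor. Over all genes, 1.42% differed in the unpassaged and 3.1% in the early comparison.

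The genes most like each of the 9 across all 32 libraries were found by Spearman correlation of log2(CPM + 1) over 7815 genes. These values mix tissue and culture groups, so they describe the shared pattern of groups and carry no test. The closest were Ggta1 for Itga6 (0.926), Plod1 for Itgb4 (0.895), Vwa5a for Col17a1 (0.903), Strn4 for Dst (0.807), Itgb1 for Lama3 (0.911), Itgav for Lamb3 (0.896), Ppp1r18 for Itga3 (0.924), Cpne1 for Itgb1 (0.918) and Mis18a for Itga2 (0.757). Among the 9 genes themselves the correlations ran from 0.31 (Col17a1 and Itga2) to 0.91 (Lama3 and Itgb1).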

How the data were processed

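The authors deposited whole-number counts per gene symbol, 1 file per library, from CEL-seq2 libraries sequenced on a NextSeq500, per the labels' protocols. BWA 0.6.2-r126 and mm10 are named in the submitters' processing notes, and neither the counting tool nor any step with molecular identifiers is given in the sources used here. Genes missing from a file were taken as 0, and spike-ins were left out. Levels are CPM of the plain library total, and fold changes come from edgeR 4.0.16 in R 4.3.3 with TMM scaling, so the 2 scales can differ in size. Genes were kept by filterByExpr (minimum count 10, minimum total 15) and tested with the quasi-likelihood test, two-sided, with Benjamini-Hochberg adjustment over all genes tested at 0.05. All adjusted p are edgeR's unless DESeq2 (1.42.0) is named. Standard errors of fold changes were taken as the absolute log2 fold change divided by the square root of the quasi-likelihood F. They are approximate, above all for fold changes near 0. Intervals apply a normal multiplier to them, which makes them somewhat narrow for so few libraries. Each fit was tested on simulated data.

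Fits held epidermis, follicles and the Fgf1 organoids of early and late passages (17 libraries, 10843 genes), passaged organoids (18, 9919), early and unpassaged organoids with medium as a term (16, 8890), and epidermis with unpassaged and early organoids (20, 9758). The comparison by inhibitor (17 libraries, 9477 genes) was added after seeing the data. No 2 files of one group agreed within sampling noise (chi-square per degree of freedom 3.47 to 69.5 over 38 pairs), so none was treated as a library deposited again; this does not show separate cultures or animals. The libraries fell into 11 sets that list the same genes, each epidermal library in its own, so for epidermis and follicles the set and the group cannot be told apart. Gene names were matched to GENCODE M21 for loci, and 6 of the 9 genes had a promoter entry used here. The 9 genes, the lists and the comparisons were chosen with earlier results of these data known. From each list up to 3 genes per comparison were named by rule, those with the largest absolute fold change among genes past the test whose groups do not overlap. 1 gene of the lists is not reported here. Alternatives were other scalings, no filter, DESeq2, single libraries left out, the compared groups alone, file sets and a replicate block. Intervals and floors cover counting error or the spread between libraries only.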

Additional observations from a re-analysis of the deposited data

Results flagged for a closer look

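Only the 3 groups of 4 to 10 libraries were examined: late organoids, and early organoids with forskolin and either Fgf10 or the inhibitor. In these no library stood far from the rest for any of the 9 genes. Among 37 further adhesion genes named in a comparison, 13 of 138 gene and group pairs examined (the 9 genes included) had a library whose gap to the nearest other exceeded Dixon's critical value. Chance flags about 1 in 20 for normal values only, which CPM need not follow. Where every other library of the group had no count, any count was flagged, so the 13 cannot be read against that rate.

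In late organoids, Lama1 was counted in replicate 3 alone, at 8.31 CPM, and Mmp9 was highest there at 8.95 CPM, with 3.10 CPM next. Replicate 1 was highest for Col4a2 at 174 CPM, with 60.1 CPM next, and for Dsg2 at 71.9 CPM, with 21.8 CPM next. Mmp2 was highest in replicate 6 at 37.1 CPM, with 11.7 CPM next.

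In early organoids with forskolin and the inhibitor, replicate 4 stood apart 5 times. It was highest for Dsc1 at 310.1 CPM (75.1 CPM next) and for Mmp2 at 11.1 CPM (1.36 CPM next), and lowest for Adam17 at 38.8 CPM (59.0 CPM next). It alone had counts of Lama1, at 1.23 CPM, and of Col4a6, at 0.616 CPM. In early organoids with forskolin and Fgf10, replicate 1 was highest for Actn1 at 339 CPM (254 CPM next) and alone had Nid1, at 0.586 CPM, and replicate 2 alone had Pkp2, at 0.671 CPM. Values under 1 CPM here rest on single counts.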

How the results depend on the processing

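Of 40 calls among the 9 genes none changed direction under any alternative, and the turned values below were all of genes that did not pass. Among fold changes of single genes, 1029 of 1138 with a library left out and 828 of 891 under other alternatives kept their direction and their side of the threshold, and 50 and 13 calls were lost. The cause of the changes was not tested, except that a fit with fewer libraries has less information by construction. Itga2 had 0 to 21 counts a library, so its values are imprecise.

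With relative log expression scaling, the count of the 9 genes called was 1 (0 as fitted) for unpassaged inhibitor against none. With upper quartile scaling, the count of the 9 genes called was 0 (1 as fitted) for anagen against mixed follicles. The log2 fold changes that turned were Itgb1 0.0058 for early inhibitor against Fgf10 and Itgb1 −0.092 for early organoids against epidermis. With library totals alone, the count of all genes called was 4 (7 as fitted) for the unpassaged minus early inhibitor effect, and the count of the 9 genes called was 0 (1 as fitted) for anagen against mixed follicles. The log2 fold changes that turned were Dst 0.49 for anagen against mixed follicles, Col17a1 0.0084 and Itgb1 0.12 for early inhibitor against Fgf10, Col17a1 0.060 and Dst 0.0041 for early Fgf1 against Fgf10, Itgb1 −0.23 for early organoids against epidermis and Itgb4 0.045 for early inhibitor against none. Without the filter on low counts, the count of all genes called was 115 (57 as fitted) for early inhibitor against Fgf10, 19 (0 as fitted) for early inhibitor with against without forskolin, 3 (0 as fitted) for early Fgf1 against Fgf10, 1663 (1051 as fitted) for early against unpassaged organoids and 11 (7 as fitted) for the unpassaged minus early inhibitor effect, and the count of the 9 genes called was 2 (1 as fitted) for anagen against mixed follicles, 5 (3 as fitted) for early against unpassaged organoids and 2 (0 as fitted) for unpassaged inhibitor against none. The log2 fold changes that turned were Lama3 −0.0061 for late against early organoids and Itga6 −0.0043 for early inhibitor against none. In DESeq2, the count of all genes called was 1137 (666 as fitted) for late against early organoids, 138 (57 as fitted) for early inhibitor against Fgf10, 24 (0 as fitted) for early inhibitor with against without forskolin, 12 (0 as fitted) for early Fgf1 against Fgf10, 311 (135 as fitted) for unpassaged inhibitor against none and 33 (7 as fitted) for the unpassaged minus early inhibitor effect, and the count of the 9 genes called was 2 (1 as fitted) for anagen against mixed follicles, 1 (0 as fitted) for late against early organoids, 5 (3 as fitted) for unpassaged organoids against epidermis and 4 (0 as fitted) for unpassaged inhibitor against none. With the 2 compared groups fitted alone, the count of all genes called was 1377 (2360 as fitted) for late organoids against epidermis, 1 (666 as fitted) for late against early organoids, 123 (57 as fitted) for early inhibitor against Fgf10, 5 (0 as fitted) for early inhibitor with against without forskolin and 43 (0 as fitted) for early Fgf1 against Fgf10, and the count of the 9 genes called was 0 (1 as fitted) for anagen against mixed follicles and 2 (4 as fitted) for late organoids against epidermis. The log2 fold change that turned was Dst −0.0091 for late organoids against mixed follicles. With the file set as a term, the count of all genes called was 179 (57 as fitted) for early inhibitor against Fgf10, 12 (0 as fitted) for early Fgf1 against Fgf10 and 7 (1051 as fitted) for early against unpassaged organoids, and the count of the 9 genes called was 0 (3 as fitted) for early against unpassaged organoids. The log2 fold changes that turned were Col17a1 0.037 and Itgb1 0.070 for early inhibitor against Fgf10. Within the file set of the unpassaged libraries, with only the media with Fgf10 or Fgf1, the count of all genes called was 433 (1051 as fitted) for early against unpassaged organoids, and the count of the 9 genes called was 5 (3 as fitted) for early against unpassaged organoids. Within the other early file set, the count of all genes called was 99 (57 as fitted) for early inhibitor against Fgf10. The log2 fold changes that turned were Col17a1 0.046 and Itgb1 0.12 for early inhibitor against Fgf10.

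With 1 library left out at a time, the count of all genes called ran over 400 to 662 (719 as fitted) for anagen against mixed follicles, 1296 to 2548 (2360 as fitted) for late organoids against epidermis, 44 to 1097 (666 as fitted) for late against early organoids, 17 to 47 (57 as fitted) for early inhibitor against Fgf10, 0 to 16 (0 as fitted) for early inhibitor with against without forskolin, 0 to 6 (0 as fitted) for early Fgf1 against Fgf10, 184 to 1257 (1051 as fitted) for early against unpassaged organoids, 8 to 73 (135 as fitted) for unpassaged inhibitor against none and 0 to 6 (7 as fitted) for the unpassaged minus early inhibitor effect. For the 9 genes the count ran over 0 to 1 (1) for anagen against mixed follicles, 1 to 4 (4) for late organoids against epidermis, 0 to 3 (3) for early against unpassaged organoids and 2 to 5 (3) for unpassaged organoids against epidermis. Log2 fold changes that turned at least once, none of them past the test as fitted, ran over Dst −0.79 to 0.039, Itga6 −0.68 to 0.53 and Itgb1 −0.23 to 0.54 for anagen against mixed follicles, Itgb4 −0.15 to 0.40 for late organoids against epidermis and Dst −0.33 to 0.45 for late organoids against mixed follicles. Further ranges were Itga6 −0.23 to 0.38, Itgb4 −1.19 to 0.091, Lama3 −0.17 to 0.25 and Lamb3 −0.18 to 0.70 for late against early organoids, Col17a1 −0.34 to 0.035, Itgb1 −0.26 to 0.22 and Lama3 −0.20 to 0.40 for early inhibitor against Fgf10 and Col17a1 −0.26 to 0.77 for early inhibitor with against without forskolin. The others were Col17a1 −0.31 to 0.23, Dst −0.18 to 0.11 and Itgb4 −0.31 to 0.98 for early Fgf1 against Fgf10, Dst −0.42 to 0.14 and Itga3 −0.65 to 0.014 for early against unpassaged organoids, Itga2 −0.034 to 0.94 for unpassaged organoids against epidermis, Itga2 −0.71 to 0.26 and Itgb1 −0.033 to 0.16 for early organoids against epidermis and Itga2 −0.28 to 0.31, Itga6 −0.14 to 0.12 and Itgb4 −0.22 to 0.19 for early inhibitor against none.

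Replicate numbers did not pair the libraries: the correlation of deviations of same-numbered libraries was −0.091 to 0.17 for anagen against mixed follicles, −0.079 to 0.26 for early inhibitor against Fgf10 and 0.069 to 0.21 for late organoids against anagen follicles, and no comparison with 3 or more pairs had every pair over 0.1. It was 0.026 to 0.35 in the 2 pairs of early Fgf1 against Fgf10. With the replicate number as a block, the count of all genes called was 1453 (2360 as fitted) for late organoids against epidermis, 2171 (666 as fitted) for late against early organoids, 96 (57 as fitted) for early inhibitor against Fgf10, 385 (0 as fitted) for early inhibitor with against without forskolin and 455 (0 as fitted) for early Fgf1 against Fgf10, and the count of the 9 genes called was 0 (1 as fitted) for anagen against mixed follicles, 3 (0 as fitted) for late against early organoids and 3 (0 as fitted) for early inhibitor with against without forskolin. The log2 fold change that turned was Itga6 −0.033 for anagen against mixed follicles. No other count moved by over 1.5 times with the block. No paired analysis was possible because the groups share fewer than 2 replicate numbers for unpassaged organoids against early organoids or epidermis and for the inhibitor in unpassaged organoids. No block was fitted for early organoids against epidermis or for the inhibitor in early organoids, where several media share each number within a group.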
